A study of Mus musculus with 24 samples.

Results

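Messenger RNA was sequenced from the cerebellum of 24 neonatal C57BL/6J mice, 12 given ethanol in intralipid by gavage (Ethanol) and 12 given the same intralipid with water in place of ethanol (Control). Pups were perfused 24 hours after their last dose, on P5 after dosing on P4 or on P6 after dosing on both days. The labels give treatment and an animal number and neither age, sex nor litter, so both ages were compared together, and an effect confined to 1 age could not be looked for. Described here are 10 genes known as transcriptional targets of p53, chosen by name from the 55416 gene rows of the table: Cdkn1a, Btg2, Ccng1, Mdm2, Eda2r, Phlda3, Bax, Bbc3, Sesn1 and Trp53inp1. Each name matched 1 row, and all 10 passed the filter on low counts that left 17736 genes.

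The transcription factor p53, encoded by Trp53, is kept at a low level by the ubiquitin ligase Mdm2 and accumulates when DNA is damaged or cells are stressed. It then binds response elements near its target genes, whose products stop the cell cycle, repair DNA, limit metabolic stress or start apoptosis, and Mdm2 is itself a target, which closes a feedback loop. In the developing brain p53 and Bax are known for their part in the death of immature neurons. Several of the targets also answer to other activators, such as growth factor signalling for Btg2 and FOXO factors for Cdkn1a.

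Levels are given as CPM, counts scaled to a common library size, after normalization by the trimmed mean of M-values (TMM). Library totals were 26982564 to 38804942 estimated counts. CPM is not corrected for transcript length, so levels were not compared between genes. The 13 cerebellar markers were present in every library, from Gabra6 at its lowest of 1.28 CPM to Zic1 at its highest of 1362 CPM, and the forebrain markers Emx1 and Dlx5 stayed at or under 0.154 CPM, while the forebrain marker Neurod6 lay between 26.5 and 38.7 CPM. Libraries that stood apart were Ethanol X4673, which held the lowest or highest value of 33.9% of the tested genes (the other 23 libraries held 2.98% to 14.8%), and Ethanol X4568 and X4766 and Control X4761 and X4770, in which the choroid plexus gene Ttr was at 1.15 to 3.57 CPM while its median over all libraries was 2145 CPM.

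RefSeq windows on GRCm38.p6, which run from 250 bases before a transcription start to 50 bases after it, matched 9 of the 10 genes in 13 windows; no window was held for Trp53inp1. They were searched for the p53 response element, a pair of decamers that each hold 3 purines, C, 2 bases that are A or T, G and 3 pyrimidines. The decamer reads the same on both strands. A pair was accepted with up to 13 bases between its decamers and up to 2 mismatches in all, none of them in the core of 4 bases. Such a pair was present in 3 of the 13 windows and in 2.12% of 32851 RefSeq windows. The 3 were those of the upstream Cdkn1a start, of Bax and of the downstream Sesn1 start. A decamer with no mismatch, paired or alone, was present in 5 of the 13 windows and in 8.36% of all windows. The 250 bases before the start are printed for the 3 windows with a pair and for the other 3 genes that passed the test between groups, Mdm2, Eda2r and Btg2, with paired decamers and lone exact decamers in capitals.
Cdkn1a, upstream start (chr17:29090729-29090978, plus strand): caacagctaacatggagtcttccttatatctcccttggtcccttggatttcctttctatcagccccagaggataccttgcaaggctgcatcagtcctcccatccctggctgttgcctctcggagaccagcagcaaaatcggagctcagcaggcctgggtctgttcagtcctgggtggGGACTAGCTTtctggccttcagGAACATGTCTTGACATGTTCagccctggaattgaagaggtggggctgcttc
Bax (chr7:45466899-45467148, minus strand): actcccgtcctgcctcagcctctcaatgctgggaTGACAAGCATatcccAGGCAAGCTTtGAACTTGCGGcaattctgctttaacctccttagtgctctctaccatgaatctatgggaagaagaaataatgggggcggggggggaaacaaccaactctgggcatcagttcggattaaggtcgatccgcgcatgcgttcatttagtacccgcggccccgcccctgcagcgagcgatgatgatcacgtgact
Sesn1, downstream start (chr10:41887189-41887438, plus strand): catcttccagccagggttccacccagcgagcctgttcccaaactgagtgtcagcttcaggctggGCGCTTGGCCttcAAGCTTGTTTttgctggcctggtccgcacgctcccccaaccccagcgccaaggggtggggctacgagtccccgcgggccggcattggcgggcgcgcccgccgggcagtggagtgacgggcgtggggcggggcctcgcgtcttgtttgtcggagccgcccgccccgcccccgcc
Mdm2 (chr10:117710759-117711008, minus strand): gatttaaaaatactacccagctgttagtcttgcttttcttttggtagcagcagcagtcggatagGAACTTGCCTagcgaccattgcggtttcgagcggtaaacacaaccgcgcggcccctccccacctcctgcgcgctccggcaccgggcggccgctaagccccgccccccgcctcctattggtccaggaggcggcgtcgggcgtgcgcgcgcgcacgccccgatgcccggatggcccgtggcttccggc
Eda2r (chrX:97377210-97377459, minus strand): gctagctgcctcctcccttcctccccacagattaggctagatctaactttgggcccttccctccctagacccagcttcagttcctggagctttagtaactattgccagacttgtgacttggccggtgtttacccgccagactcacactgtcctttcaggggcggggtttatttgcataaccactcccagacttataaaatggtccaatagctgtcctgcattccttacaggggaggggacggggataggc
Btg2 (chr1:134079156-134079405, minus strand): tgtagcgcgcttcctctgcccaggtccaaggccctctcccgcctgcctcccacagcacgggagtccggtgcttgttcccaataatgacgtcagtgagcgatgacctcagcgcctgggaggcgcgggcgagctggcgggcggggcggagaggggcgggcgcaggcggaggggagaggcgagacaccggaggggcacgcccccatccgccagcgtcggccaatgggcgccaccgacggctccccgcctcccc

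The window of the upstream Cdkn1a start held 2 overlapping pairs that share the decamer GAACATGTCT. The pair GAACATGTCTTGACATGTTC had no spacer and 1 mismatch and began 51 bases before the start, a form found in 18 of all 32851 windows (0.055%). The other pair began 73 bases before the start, had no mismatch and was separated by 12 bases. In the Bax window the decamer AGGCAAGCTT took part in both pairs, each with 2 mismatches, and the Sesn1 pair also had 2. The windows of the downstream Cdkn1a start and of the upstream Sesn1 start held no pair and no exact decamer. Mdm2 held the lone decamer GAACTTGCCT, and Eda2r and Btg2 held none. The p53-responsive promoter of Mdm2 is known to lie in its first intron, which this window does not cover. A match is a run of letters and not a bound site, and no match says only that the letters are not in this window.

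The comparison of Ethanol with Control asked which of the 10 targets differed after the onset of ethanol exposure. Cdkn1a, Btg2, Mdm2 and Eda2r were higher in Ethanol and none was lower (edgeR quasi-likelihood test, adj. p under 0.05 over 17736 genes). The 4 rises were modest, from 9.13% for Mdm2 to 27.4% for Eda2r in mean CPM. Among all tested genes 9.07% were higher, 5.8% lower and 14.9% changed in either direction, against 4 of 10, 0 of 10 and 40% here. The 10 genes and all lists below were chosen with earlier results of these data known. Their shares beside those of all genes are therefore a description and not a test. At an unadjusted p under 0.05, 0 of the 10 were lower, and limma-trend, voom and DESeq2 also called 0 lower. The median log2 fold change was 0.10 over the 10 genes, 7 of them above 0, and -0.01 over all tested genes. No gene of the 10 had groups that did not overlap at all, as was the case for 0.175% of tested genes. The tissue was sequenced in bulk, so a change in the number of cells of a type and a change in RNA per cell cannot be told apart.

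**Figure D1:**
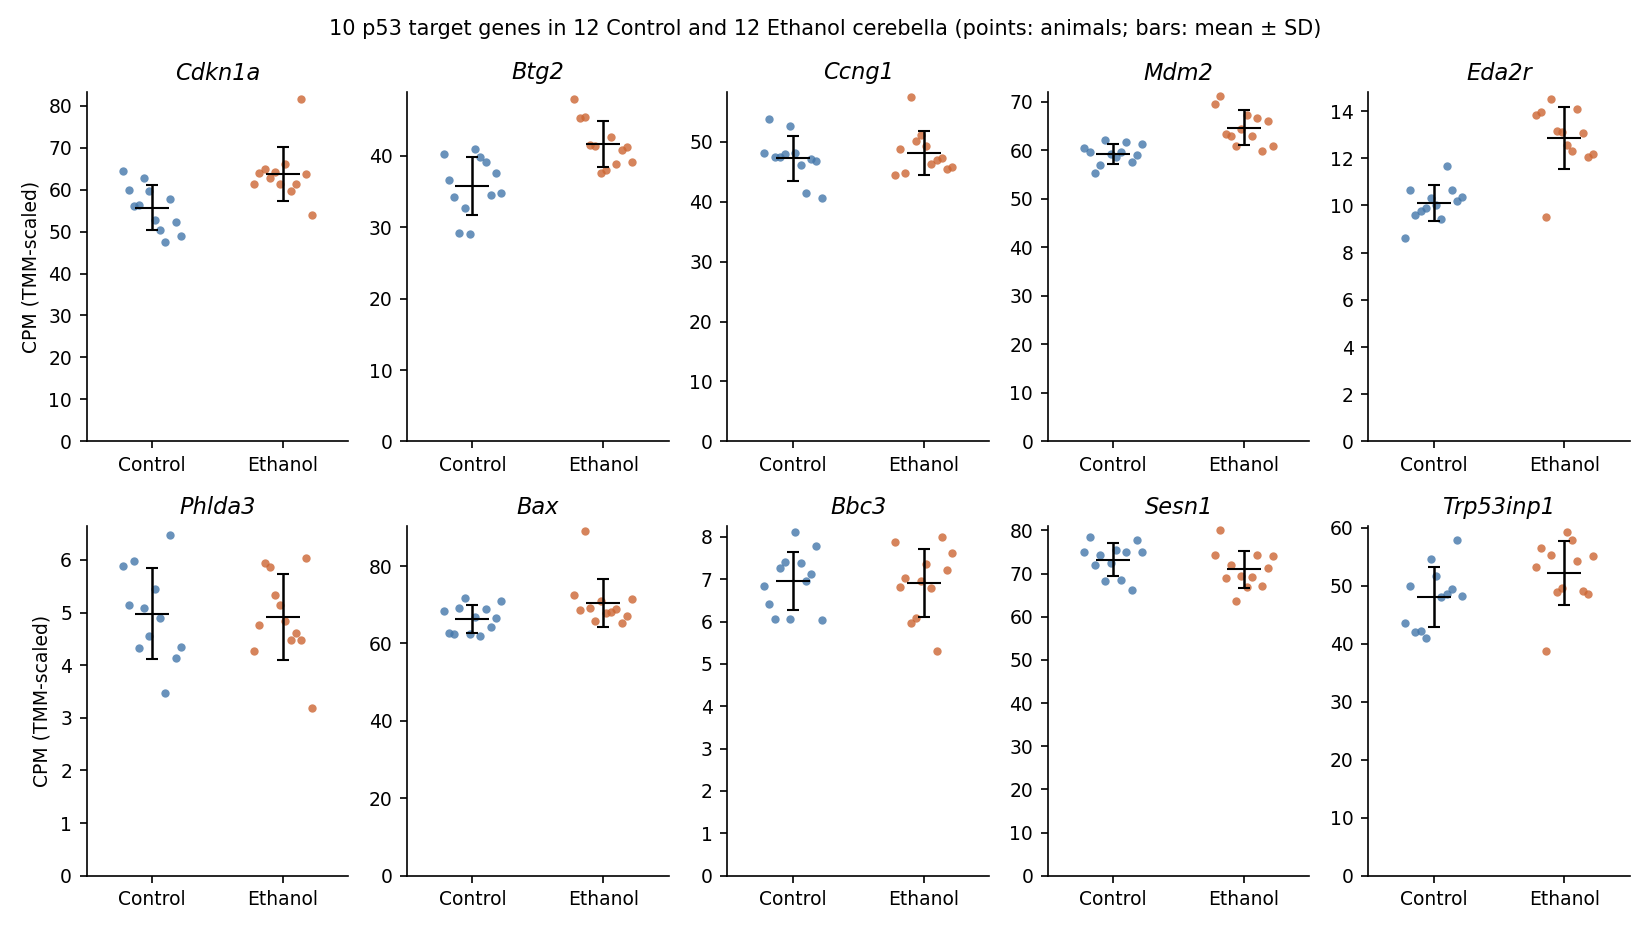
Levels of the 10 p53 target genes in CPM on axes that start at 0; each point is 1 animal, and the bars give mean ± SD of 12 Control and 12 Ethanol animals. Cdkn1a, Btg2, Mdm2 and Eda2r are shifted upward in Ethanol, and a single Ethanol animal lies low in Eda2r and in Trp53inp1 and high in Bax, which is X4673 in each.

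The feedback inhibitor rose. Mdm2, the ligase that marks p53 for degradation, ranged from 55.2 to 62.0 CPM in Control with a median of 59.3, and from 59.9 to 71.2 CPM in Ethanol with a median of 63.9. The Control median was exceeded by all 12 Ethanol animals, and the highest Control value by 9. The means were 59.3 ± 2.01 and 64.7 ± 3.56 CPM (SD, n = 12 each), and the log2 fold change was 0.13 (SE 0.03, 95% interval 0.07 to 0.19, adj. p = 0.00298).

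Among the genes that hold back the cell cycle, Cdkn1a, which encodes the cyclin-dependent kinase inhibitor p21, ranged from 47.5 to 64.3 CPM in Control with a median of 56.2. In Ethanol it ranged from 53.9 to 81.5 CPM with a median of 63.3. The groups overlapped: the Control median was exceeded by 11 of 12 Ethanol animals and the highest Control value by 3. The log2 fold change was 0.19 (SE 0.05, 95% interval 0.08 to 0.30, adj. p = 0.0149), from means of 55.7 ± 5.44 and 63.7 ± 6.44 CPM. The highest value belonged to Ethanol X4760, and without that animal the log2 fold change was 0.15 (adj. p = 0.0246).

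Btg2, an antiproliferative gene that marks neural progenitors about to divide into neurons, ranged from 29.0 to 41.0 CPM in Control with a median of 35.7, and from 37.6 to 48.0 CPM in Ethanol with a median of 41.3. Every Ethanol animal exceeded the Control median, and 7 exceeded all Control animals. The means were 35.8 ± 4.08 and 41.7 ± 3.21 CPM, and the log2 fold change was 0.22 (SE 0.05, 95% interval 0.11 to 0.33, adj. p = 0.00647).

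Ccng1, which encodes cyclin G1, did not pass the test. It ranged from 40.6 to 53.8 CPM in Control and from 44.5 to 57.5 CPM in Ethanol, with medians of 47.4 and 47.1 CPM, and the Control median was exceeded by 5 of 12 Ethanol animals. The log2 fold change was 0.03 (SE 0.04, adj. p = 0.745), with a 95% interval of -0.06 to 0.12.

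Among genes tied to cell death, the shift was in Eda2r, a receptor of the tumour necrosis factor receptor superfamily for the ligand ectodysplasin-A2. Eda2r ranged from 8.61 to 11.7 CPM in Control with a median of 10.1, and from 9.49 to 14.5 CPM in Ethanol with a median of 13.1. Ethanol X4673 had the 9.49 CPM, and the other 11 Ethanol animals, at 12.03 CPM or more, were all above every Control animal. The means were 10.1 ± 0.754 and 12.9 ± 1.33 CPM, and the log2 fold change was 0.35 (SE 0.05, 95% interval 0.23 to 0.46, adj. p = 0.000129), which placed Eda2r at rank 108 of 17736 genes by p. Without Ethanol X4673 it was 0.38 (adj. p = 9.31e-06). Its ligand gene Eda moved the other way, from 10.8 ± 0.926 to 9.28 ± 0.830 CPM. This was a fall by 0.22 on the log2 scale (SE 0.05, adj. p = 0.00584), with no Ethanol animal above the Control median. The counts do not separate the Eda isoforms, of which only ectodysplasin-A2 is known to bind this receptor.

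Eda2r lies on the X chromosome, and the libraries fell into 12 with high Xist (801 to 1015 CPM) and 12 with Xist at or under 1.01 CPM, 6 per treatment in each class. Eda2r was 9.96 ± 1.03 CPM in Control and 12.5 ± 1.67 CPM in Ethanol where Xist was high, and 10.2 ± 0.394 and 13.2 ± 0.868 CPM where it was low (n = 6 each). With the Xist class in the model its log2 fold change was 0.35 (adj. p = 0.000152).

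The apoptosis genes of the Bcl-2 family did not pass the test. Bax, whose product opens the outer mitochondrial membrane, ranged from 61.9 to 71.7 CPM in Control with a median of 66.7, and from 65.3 to 88.9 CPM in Ethanol with a median of 68.7. The groups overlapped: the Control median was exceeded by 10 of 12 Ethanol animals and the highest Control value by 2. The log2 fold change of 0.09 (SE 0.04, 95% interval 0.00 to 0.17) had an unadjusted p of 0.0391 and an adj. p of 0.149. The 88.9 CPM belonged to Ethanol X4673, and without it the log2 fold change was 0.05 (adj. p = 0.258).

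Bbc3, which encodes the BH3-only protein Puma, ranged from 6.05 to 8.11 CPM in Control and from 5.30 to 7.996 CPM in Ethanol, with medians of 7.04 and 6.99 CPM. The groups covered nearly the same range, with a log2 fold change of -0.01 (SE 0.07, 95% interval -0.14 to 0.13, adj. p = 0.958). Phlda3, an inhibitor of Akt signalling, had the lowest counts of the 10, 91 to 223 per library. It ranged from 3.48 to 6.47 CPM in Control and from 3.18 to 6.04 CPM in Ethanol, and its log2 fold change of -0.02 (SE 0.10, 95% interval -0.22 to 0.19, adj. p = 0.928) came with the widest interval of the 10.

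Among stress and autophagy genes, Sesn1, a sestrin that restrains mTORC1, ranged from 66.2 to 78.5 CPM in Control with a median of 74.6, and from 63.6 to 80.1 CPM in Ethanol with a median of 70.4. Although 11 of 12 Ethanol animals lay below the Control median, the log2 fold change of -0.05 (SE 0.03, 95% interval -0.11 to 0.02) did not pass (adj. p = 0.404). Trp53inp1, which promotes autophagy and p53 activity, ranged from 41.0 to 57.9 CPM in Control with a median of 48.4, and from 38.8 to 59.3 CPM in Ethanol with a median of 53.7. All but 1 of the 12 Ethanol values were above the Control median and that of X4673 was below every Control animal, for a log2 fold change of 0.12 (SE 0.06, adj. p = 0.197). Without X4673 it was 0.15 and passed the test (adj. p = 0.0422).

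Trp53 itself was at 98.9 ± 4.17 CPM in Control and 104 ± 5.73 CPM in Ethanol. It did not pass, at a log2 fold change of 0.07 (SE 0.03, adj. p = 0.104). RNA levels do not speak to the amount of p53 protein, which is set mainly by its degradation.

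Animal numbers fell into 6 runs of 4, each with 2 Ethanol and 2 Control animals. The paper sampled from every litter a male and a female pup of each treatment. Each run held 1 animal high and 1 low in Xist per treatment, but no label ties a run to a litter. The difference was taken within each run as the nearest check on a shared litter, day or age, which the labels do not give. The Ethanol mean was the higher in 6 of 6 runs for Cdkn1a, Mdm2, Eda2r and Bax, and in 5 of 6 for Btg2, Ccng1 and Trp53inp1. Eda2r differences were 0.23 to 0.53 log2 units and Mdm2 differences 0.05 to 0.23. Cdkn1a differences were more uneven, at 0.01 and 0.03 in runs 1 and 3 and 0.43 in run 5. Btg2 differed by 0.46 in run 2 and by -0.01 in run 4, where its means were 40.3 CPM in Ethanol and 40.4 CPM in Control. A difference of the ethanol effect between runs was tested in a model with 12 residual degrees of freedom and was called for 0 of the 10 genes at an adj. p under 0.05, and for 0.0677% of all tested genes. The lowest p of the 10 was that of Btg2, 0.0260 unadjusted and 0.718 adjusted, and limma-trend also called 0 of the 10. At an unadjusted p under 0.05, Btg2 alone of the 10 passed in edgeR, beside 1064 of all 17736 tested genes.

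**Figure D2:**
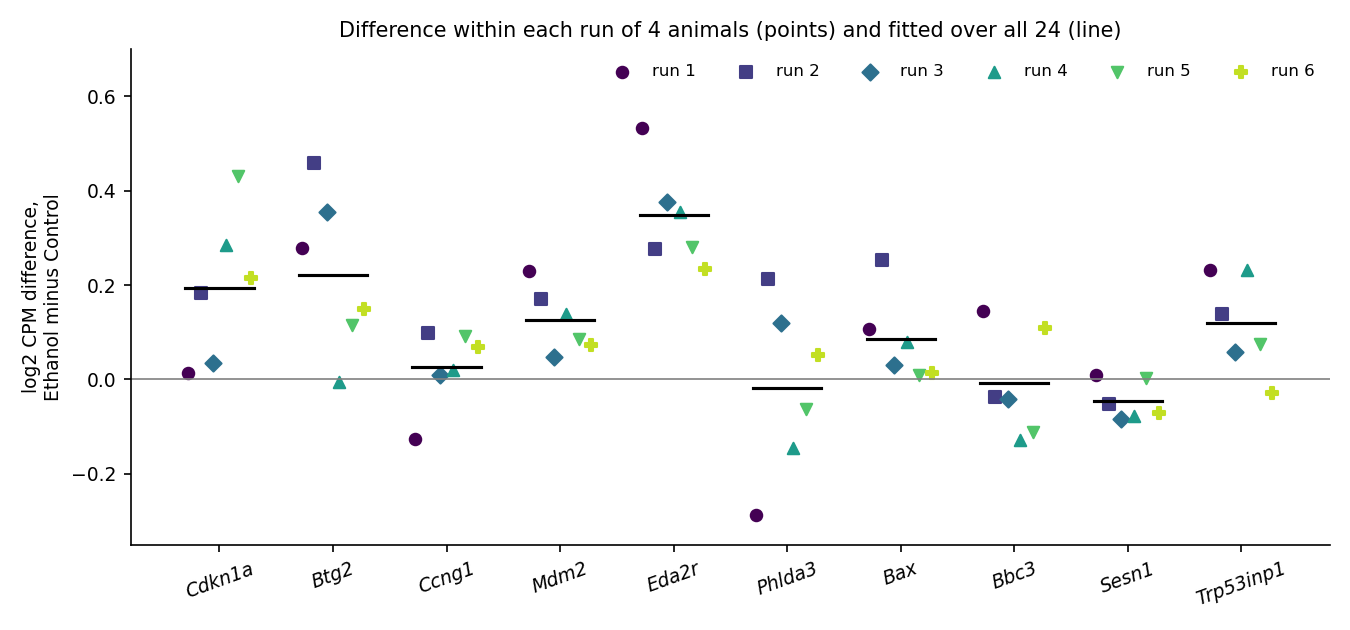
Difference in mean log2 CPM between 2 Ethanol and 2 Control animals within each of the 6 runs of animal numbers (points) and the log2 fold change fitted over all 24 animals (line), for each gene. All 6 points of Cdkn1a, Mdm2, Eda2r and Bax lie above 0, while those of Phlda3 and Bbc3 lie on both sides.

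Of the 4 genes that rose, Cdkn1a was the only 1 to lose its call when a whole run was left out. Without run 2 its log2 fold change was 0.19 (adj. p = 0.0584) and without run 4 it was 0.18 (adj. p = 0.0634). Mdm2, Eda2r and Btg2 passed in each of the 24 fits without 1 animal and the 6 fits without 1 run. With the run as a block in the model the same 4 genes passed, with adj. p of 0.00926 for Cdkn1a and 0.00152 for Btg2.

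Choroid plexus markers were uneven over the libraries, and 3 of the 10 genes had some of their lowest values where Ttr was low. Cdkn1a was at 47.5 and 48.8 CPM in the 2 Control libraries low in Ttr, the 2 lowest Control values, and at 53.9 CPM in Ethanol X4766, the lowest Ethanol value, but at 61.2 CPM in Ethanol X4568, near the Ethanol median. Ccng1 had its lowest Control values, 40.6 and 41.4 CPM, in those Control libraries, and its lowest Ethanol value, 44.5 CPM, in X4568. Phlda3 was lowest in X4766 at 3.18 CPM and in Control X4761 at 3.48 CPM. Over deviations from the group mean in all 24 libraries, Pearson's r with Ttr was 0.632 for Cdkn1a, 0.706 for Ccng1 and 0.645 for Phlda3. Without the 2 libraries farthest out in Ttr it was 0.493, 0.516 and 0.571. For the other genes r over all 24 lay between -0.297 and -0.118. Eda2r, at 13.8 and 12.2 CPM in the 2 Ethanol libraries low in Ttr and 11.7 and 10.4 CPM in the Control ones, was not low there. Without these 4 libraries the same 4 genes passed, with a log2 fold change of 0.19 for Cdkn1a (adj. p = 0.0213). The summed level of the 10 choroid plexus markers spanned 34.5 to 5421 CPM in Control and 45.1 to 5423 CPM in Ethanol, with no marker past the test.

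**Figure D3:**
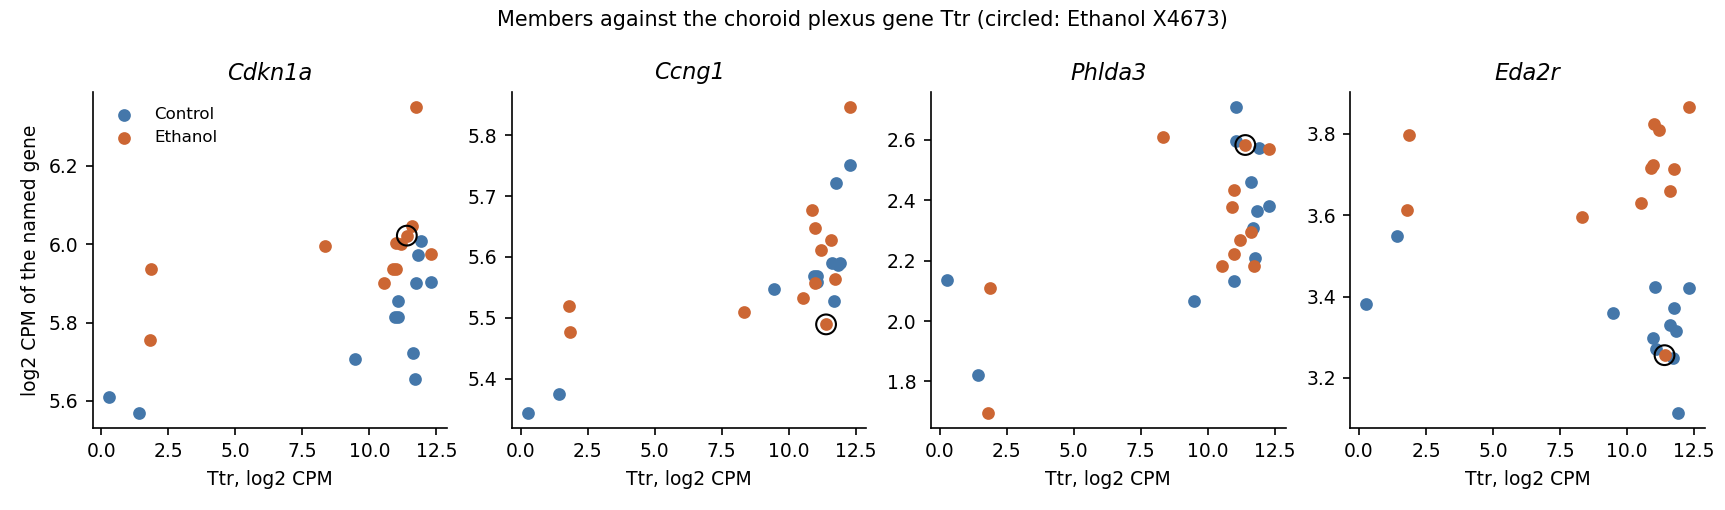
Level of 4 of the p53 target genes against the choroid plexus gene Ttr, both as log2 CPM, with 1 point per animal. In the 4 libraries at the left, low in Ttr, Cdkn1a, Ccng1 and Phlda3 tend to be low in both groups and Eda2r does not; the circled Ethanol X4673 lies among the Control animals in Eda2r.

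Markers of other cell types also differed between the groups. The share called was 50% of endothelial and mural, 50% of microglial and 62.5% of astrocyte and Bergmann glia markers. It was 23.1% of cerebellar markers and 14.9% of all genes. Of 8 endothelial and mural markers 4 were lower and 0 higher, with a summed level of 503 to 563 CPM in Control and 439 to 514 CPM in Ethanol. Pecam1, 1 of the 4, did not pass without the 4 libraries low in Ttr (-0.15, adj. p = 0.0592), nor did Tek without these and X4673 (-0.15, adj. p = 0.0507), and Cldn5 was also lower with the run as block (-0.14, adj. p = 0.0356). Of 10 microglial markers 4 were higher and 1, P2ry12, was lower (sums of 180 to 265 and 209 to 343 CPM), and of 8 astrocyte and Bergmann glia markers 4 were higher and 1, Gdf10, was lower (sums of 3837 to 4495 and 4214 to 4706 CPM). With the run as block Cx3cr1 (0.15, adj. p = 0.00853) and Itgam (0.48, adj. p = 0.00556) were also higher, for 6 of 10 microglial markers. No marker of these 3 lists was at 0 in any library. Of 13 cerebellar markers Atoh1 was higher and Car8 and Barhl1 were lower. Neurod1 was also higher with the run as block (0.22, adj. p = 0.0255). Atoh1 passed in 5 of 12 alternatives and did not without the libraries low in Ttr (0.19, adj. p = 0.102), and Barhl1 did not pass without these and X4673 (-0.15, adj. p = 0.0611). None of 8 oligodendrocyte lineage, 5 erythroid or 2 tested forebrain markers passed in the main edgeR fit. There, at an unadjusted p under 0.05, only Hbb-bt and Tbr1 of these were lower and none was higher. Hbb-bt was called lower by limma-trend (adj. p = 0.0289), by voom and with the run as block (adj. p = 0.0259). The part of these shifts in the p53 targets was not tested.

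The 10 genes did not rise and fall together from animal to animal. Correlations were taken over deviations from the group mean in all 24 libraries and are given as a description. Over the 45 pairs, Pearson's r ranged from -0.54 to 0.59 with a median of 0.00, and 23 were above 0. Among the 6 pairs of Cdkn1a, Btg2, Mdm2 and Eda2r only Btg2 with Mdm2 (0.29) and Mdm2 with Eda2r (0.26) were above 0. The most extreme values moved when Ethanol X4673 was left out: Eda2r with Trp53inp1 went from 0.59 to 0.34 without it, Bax with Trp53inp1 from -0.54 to -0.20, and Eda2r with Bax from -0.51 to 0.01. Cdkn1a with Phlda3 (0.47) and with Ccng1 (0.43), the genes that were low in libraries low in Ttr, stayed at 0.48 and 0.45.

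**Figure D4:**
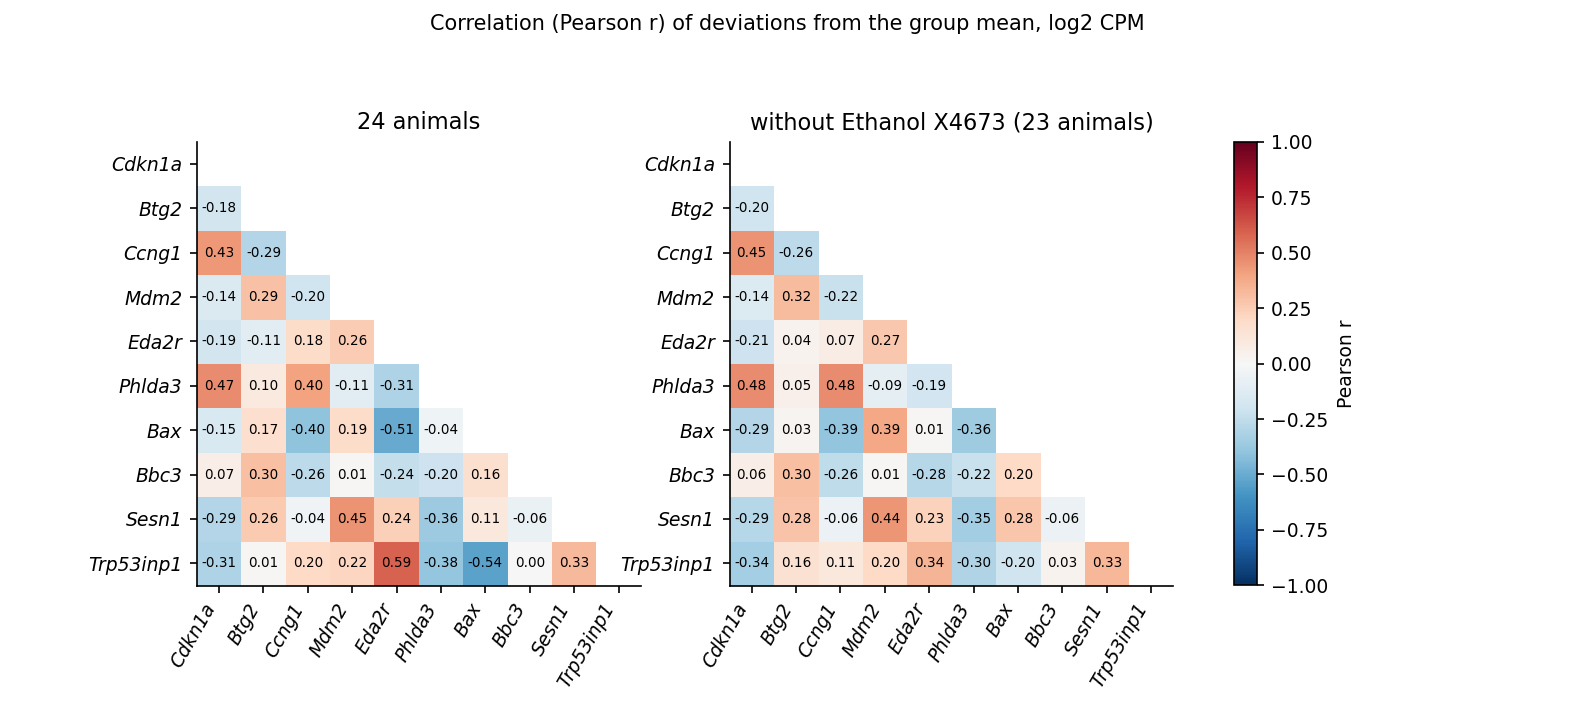
Pearson's r between pairs of the 10 genes over deviations from the group mean of log2 CPM, in 24 animals (left) and in 23 without Ethanol X4673 (right); red is positive and blue negative. Few cells are strongly coloured, and the strong cells of Eda2r, Bax and Trp53inp1 pale without that animal.

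A search of 15415 genes for the pattern most like each risen gene, over the same deviations in 24 libraries, gave Dnah2 (r = 0.81), Pygl (0.80) and Mcidas (0.79) for Cdkn1a. For Mdm2 it gave Med18 (0.77), Dmrta1 (0.74) and Mbtps1 (0.73), and for Btg2 Fignl2 (0.80), Gm27032 (0.77) and Neurog1 (0.76). For Eda2r it gave Mtmr12 (0.85), Gpm6b (0.84) and Qser1 (0.84), which fell to 0.72, 0.66 and 0.66 without Ethanol X4673. None of the 10 targets was among the genes found. Of these 12 genes, Neurog1 (log2 fold change 0.68, adj. p = 0.000205) and Gm27032 (0.44, adj. p = 0.01002) rose with Ethanol like Btg2, and Mtmr12 (-0.10, adj. p = 0.0418) was lower.

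Other genes of the p53 pathway were mixed in direction. Of 40 further p53 targets 39 were tested, Gdf15 being too low, and 5 were higher, 4 lower and 30 not called, 23.1% called against 14.9% of all genes. Their median log2 fold change was -0.01, the same as over all genes. Fas, a death receptor, rose from 0.364 ± 0.118 to 0.732 ± 0.286 CPM (log2 fold change 1.00, SE 0.20, adj. p = 0.00118). Its level was near the floor, and the stricter filter on low counts removed it. Fas passed in the other 11 alternatives. Sesn2, the paralogue of Sesn1, rose from 18.9 ± 1.16 to 26.8 ± 4.76 CPM (0.50, SE 0.08, adj. p = 9.97e-05), and Gadd45a, a growth arrest gene, from 6.98 ± 0.756 to 8.64 ± 0.968 CPM (0.31, SE 0.06, adj. p = 0.00188). Zmat3 and Ercc5 were each higher by 0.09 on the log2 scale (adj. p = 0.0229 and 0.0264), and Ercc5 did not pass without the 4 libraries low in Ttr (0.09, adj. p = 0.0637). With the run as block Aen, a nuclease gene, was also higher (0.09, adj. p = 0.0257).

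The 4 further targets that fell were Tap1, a peptide transporter of antigen presentation (-0.33, SE 0.06, adj. p = 0.000393), Ak1, an adenylate kinase (-0.16, SE 0.05, adj. p = 0.0197), Pidd1, a scaffold for caspase activation (-0.16, SE 0.04, adj. p = 0.0116), and Pmaip1, which encodes the BH3-only protein Noxa (-0.26, SE 0.08, adj. p = 0.0389). Pidd1 did not pass without the libraries low in Ttr (-0.13, adj. p = 0.0732), and Pmaip1 passed in 15 of the 30 fits without 1 animal or 1 run.

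**Figure D5:**
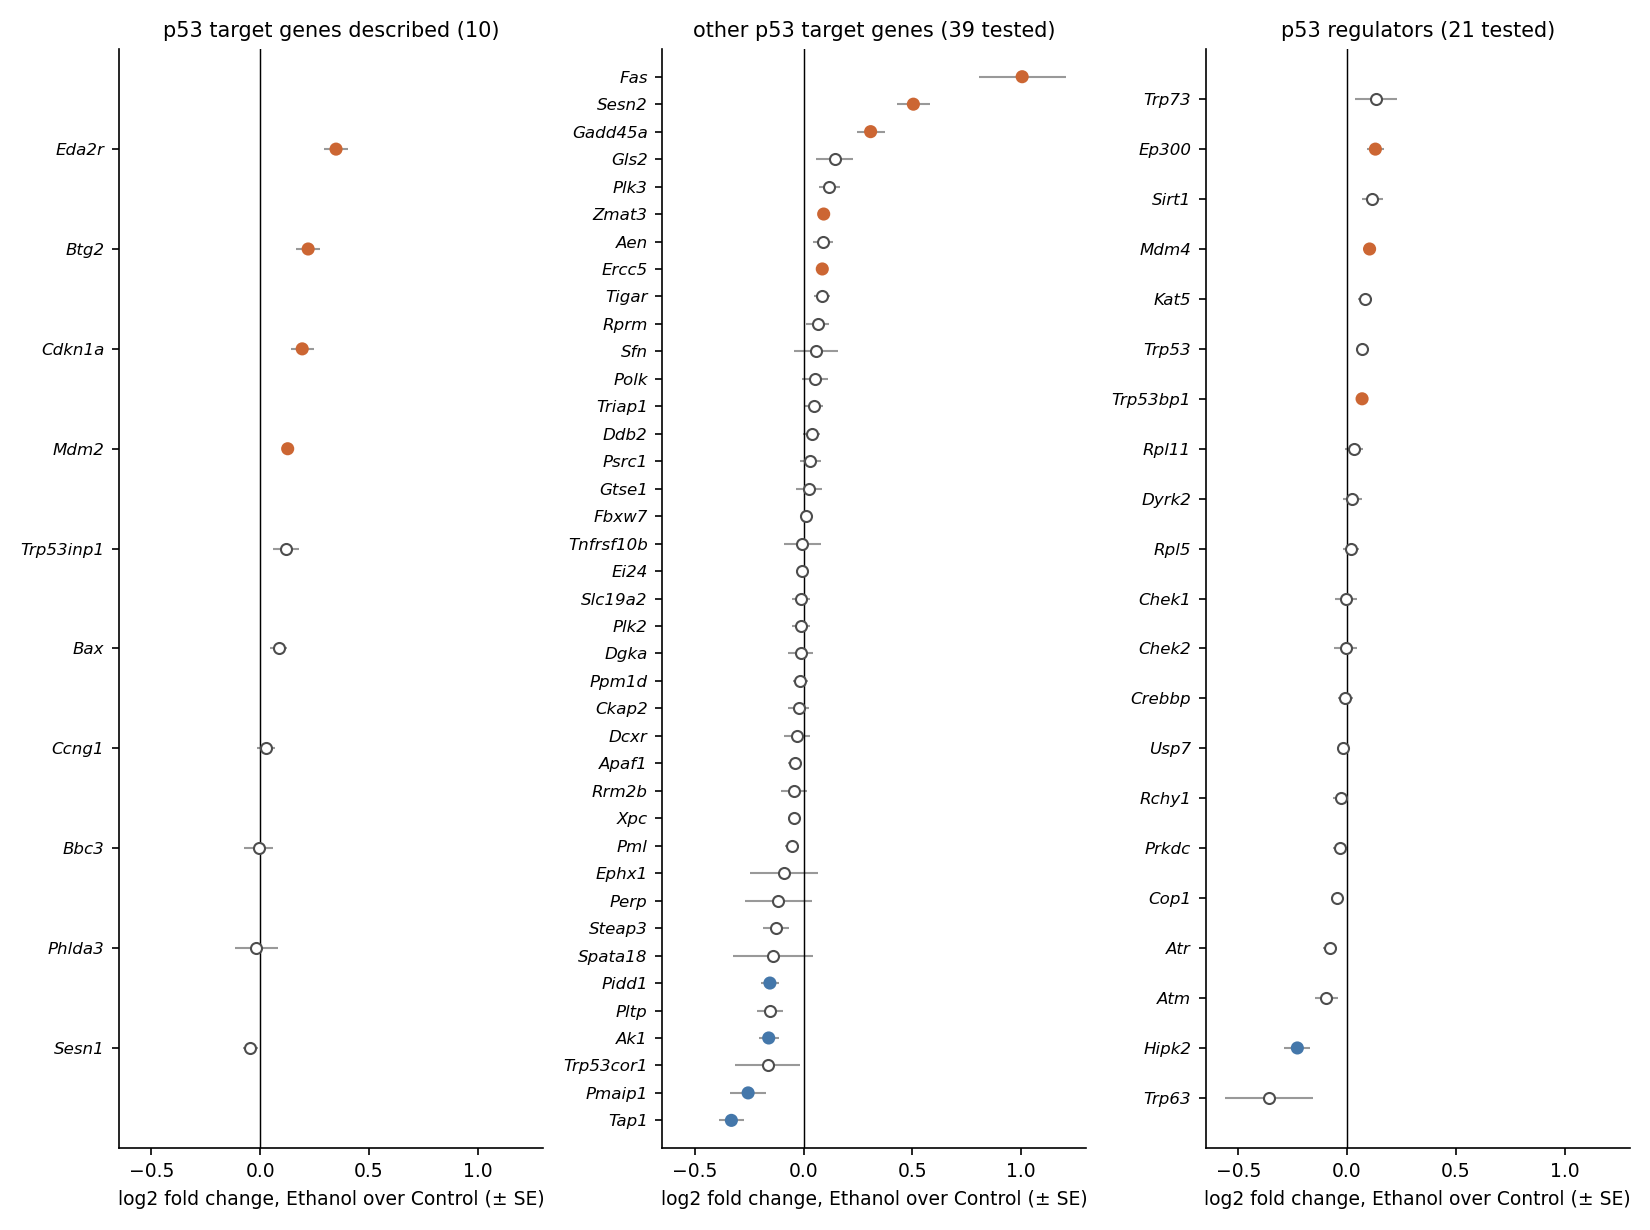
Log2 fold change of Ethanol over Control with its SE for the 10 p53 target genes, 39 other p53 targets and 21 p53 regulators; filled points passed the test (orange higher, blue lower) and open points did not. The 10 genes lie mostly right of 0, and the other targets spread to both sides, from Fas at 1.00 to Tap1 at -0.33.

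Of 22 genes that regulate p53, 21 were tested, and 3 were higher and 1 lower (median -0.01). The share called was 19%, against 14.9% of all genes. The higher ones were Mdm4, the partner of Mdm2 (0.10, SE 0.03, adj. p = 0.0198), the damage response protein Trp53bp1 (0.07, SE 0.02, adj. p = 0.0228) and the acetyltransferase Ep300 (0.13, SE 0.04, adj. p = 0.0270). Hipk2, a kinase of p53, fell by 0.23 on the log2 scale (SE 0.06, adj. p = 0.0103), and no Ethanol animal lay above its Control median. Ep300 did not pass without the 4 libraries low in Ttr (0.13, adj. p = 0.0834), and Hipk2 did not pass without these and X4673 (-0.20, adj. p = 0.0509). Trp53bp1 did not pass with upper-quartile factors or with no filter on low counts.

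Paralogues of the 10 genes moved in both directions. Cdkn1b and Cdkn1c, which encode the kinase inhibitors p27 and p57, did not pass, with log2 fold changes of 0.04 (SE 0.06) and 0.01 (SE 0.10) beside 0.19 for Cdkn1a. Btg1 rose like Btg2 (0.14, SE 0.04, adj. p = 0.0202) and Btg3 did not pass (-0.14, SE 0.07). Ccng2, the paralogue of the uncalled Ccng1, rose from 71.2 ± 7.64 to 87.7 ± 10.3 CPM (0.30, SE 0.06, adj. p = 0.00187), with its Control median exceeded by all 12 Ethanol animals. Sesn2 rose while Sesn3 fell by 0.11 on the log2 scale (SE 0.03, adj. p = 0.00696). Phlda1 rose (0.18, SE 0.05, adj. p = 0.0186), whereas Tnfrsf19, a receptor related to Eda2r, fell by 0.24 (SE 0.05, adj. p = 0.00373) and Edar, the receptor of the other ectodysplasin form, did not pass (0.47, SE 0.18, adj. p = 0.0759). In the Bcl-2 family Bak1, Hrk and Bcl2l11 did not pass, with log2 fold changes between -0.03 and 0.13. Bok, at -0.13 (SE 0.05), missed the threshold (adj. p = 0.0519) and was lower in 8 of 12 alternatives, among them limma-trend (adj. p = 0.0444) and the run as block (adj. p = 0.0476). Trp53inp2 did not pass (0.02, SE 0.06, adj. p = 0.851), and Phlda2 was too low to be tested. In all 5 of 16 tested paralogues were higher and 2 lower, 43.8% called against 14.9% of all genes. The 5 include Mdm4, which is also counted among the p53 regulators. Differences between paralogues were not tested.

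Among 20 genes whose products act with those of the 10, 2 were higher and 2 lower (median -0.04). The share called was 20%, against 14.9% of all genes. The survival gene Bcl2, whose product restrains Bax, rose by 0.17 on the log2 scale (SE 0.04, adj. p = 0.00506), and Casp9, the caspase activated downstream of Bax, fell by 0.10 (SE 0.03, adj. p = 0.0114). The cyclin gene Ccne2, whose kinase complex p21 inhibits, rose by 0.17 (SE 0.05, adj. p = 0.0133), though it did not pass without the libraries low in Ttr (0.15, adj. p = 0.0619), and Eda, described above, fell.

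Of 26 cell cycle genes known to be repressed downstream of p53 and p21, 5 were lower and 0 higher (median -0.08). A log2 fold change above 0 was seen in 3. The share called was 19.2%, against 14.9% of all genes, of which 5.8% were lower and 9.07% higher. The cyclin gene Ccnb2 fell from 46.1 ± 3.62 to 39.1 ± 3.89 CPM (-0.24, SE 0.05, adj. p = 0.00226), and Bub1b (-0.17), Cenpa (-0.17), Bub1 (-0.15) and Ccna2 (-0.13), genes of mitosis and its checkpoint, had adj. p between 0.00810 and 0.0383. At an unadjusted p under 0.05 only Aurka was higher (0.18, adj. p = 0.0530), and DESeq2 called 1 gene of this list higher. Without the 4 libraries low in Ttr, Bub1 (adj. p = 0.0984) and Ccna2 (adj. p = 0.0906) did not pass.

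Lists of other stress and signal responses were set beside these targets. The share called was 85.7% of ATF4 targets, 38.5% of immediate early genes and 50% of FOXO targets, against 14.9% of all genes. Of 14 ATF4 targets, genes of the integrated stress response, 11 were higher and 1, Ppp1r15a, was lower, with a median log2 fold change of 0.33. Chac1, which degrades glutathione, rose by 1.83 on the log2 scale (adj. p = 3.05e-05), Atf3 by 0.86 and Sesn2, which is on both this list and that of p53 targets, by 0.50. Without the 4 libraries low in Ttr 9 were higher, as Ddit4 (0.16, adj. p = 0.0635) and Phgdh (0.15, adj. p = 0.0712) did not pass. Of 13 immediate early genes 5 were higher and 0 lower (median 0.18), among them Fos (0.62, adj. p = 0.0136) and Zfp36 (0.50, adj. p = 0.000369). At an unadjusted p under 0.05 only Egr1 was lower (-0.35, adj. p = 0.0868), and voom called 1 gene lower. Klf2, 1 of the 5, did not pass without the libraries low in Ttr (0.28, adj. p = 0.0747). Of 12 FOXO targets 2 were higher, Ccng2 and Cited2, and 4 lower, led by Arrdc3 (-0.85, adj. p = 0.000163) and Txnip (-0.65, adj. p = 0.00513). Of the 4, Foxo1 did not pass without the libraries low in Ttr and X4673.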

How the data were processed

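Messenger RNA was sequenced as paired-end reads from 24 cerebella, 12 Ethanol and 12 Control. The authors ran a stated release of the nf-core/rnaseq pipeline and deposited estimated counts per gene. STAR, Salmon and limma, with the build GRCm39, are listed in the submitters' processing notes; the notes give no versions for them, and neither the annotation release nor the strand setting is named in the sources used here. The tissue is given as brain in the labels and as microdissected cerebellum in the paper's methods. Tissue homogenizer and RNA kit also differ between the labels and the paper's methods. Rounding to whole numbers came first, since 10.92% of values were off a whole number by over 0.01.

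The test was that of edgeR 4.0.16 (R 4.3.3) after filterByExpr and TMM scaling, whose factors were 0.9822 to 1.013 (robust quasi-likelihood, 22 residual degrees of freedom, Benjamini-Hochberg over 17736 genes, adj. p under 0.05). The study used limma on log2 CPM, run here as an alternative. Alternatives were limma-trend and voom (limma 3.58.1), DESeq2 1.42.0, upper-quartile or RLE factors, omitting the filter, a stricter filter (1 CPM in 12 libraries), the run as block, the Xist class, 3 surrogate variables (sva 3.50.0), leaving out each animal or run and, chosen after the data were seen, leaving out the 4 libraries with log2 CPM of Ttr under 4, also with Ethanol X4673. Log2 CPM for correlations used a prior count of 2. Each library is a separate animal by its label; the labels give no litters. The test was also run on counts simulated for independent animals with known fold changes. Those counts held no litters, runs or ages, so they cannot check whether the animals here were independent. Promoters were scanned and plots drawn with Python 3.11.15, numpy 2.4.6, pandas 2.3.3, scipy 1.17.1 and matplotlib 3.10.9.

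The 10 genes and all lists were chosen with earlier results of these data known. Named genes were the 10, Trp53, their paralogues, up to 5 per list and direction with the smallest p among those past the test, and the 3 most similar genes per risen member. In GENCODE M21 exons of Cdkn1a overlap AC167363.2 on the opposite strand (273 bases) and those of Bax overlap Gm45808 on the same strand (192 bases); reads there cannot be assigned with certainty.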

Additional observations from a re-analysis of the deposited data

How the results depend on the processing

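Cdkn1a, Mdm2, Eda2r and Btg2 passed in each of 12 alternatives, and no other gene of the 10 passed in any of these. Log2 fold changes over them were 0.18 to 0.22 for Cdkn1a, 0.11 to 0.14 for Mdm2, 0.34 to 0.42 for Eda2r and 0.21 to 0.23 for Btg2. The run of animal numbers as replicate block changed no call among the 10 (Cdkn1a 0.20, adj. p = 0.00926). Without 1 animal or 1 run, 0 of the 10 were lower. Cdkn1a passed in all 24 fits without 1 animal and in 4 of 6 without 1 run. Trp53inp1 passed in 1 of the 24 and in 0 of the 6. Phlda3 and Bbc3, near 0, changed sign: Phlda3 was 0.019 with 3 surrogate variables, and without 1 animal or 1 run Phlda3 spanned -0.071 to 0.043 and Bbc3 -0.034 to 0.024. Leaving out 1 animal or 1 run gave 3 to 6 higher and 2 to 5 lower further p53 targets, 0 to 4 higher and 0 to 1 lower p53 regulators, and 499 to 1438 lower genes in all. The lower regulator Hipk2 did not pass without the low-Ttr libraries and X4673, which left 0. Lower genes in all numbered 662 with no filter and 612 without the libraries low in Ttr, against 1028. Lower cell cycle genes numbered 3 with no filter, 3 without those libraries and 8 with 3 surrogate variables, and 1 was higher with DESeq2, the block and the surrogate variables. Immediate early genes had 1 lower with voom. Higher partners numbered 1 without the libraries low in Ttr, with or without X4673. The causes were not tested. Settings moved the median of all genes by no more than 0.02. Phlda3 had the fewest counts of the 10, 91 to 223, and the largest SE.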
